A study of Homo sapiens with 28 samples.

Results

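The 10 genes FOS, FOSB, FOSL1, FOSL2, JUN, JUNB, JUND, EGR1, EGR3 and ATF3 encode AP-1 and EGR transcription factors and were found in the count table by gene symbol, as 10 of its 61815 genes. They were followed through 28 RNA-seq libraries of LNCaP, an established androgen-responsive line of human prostate cancer cells. All cells were unmodified and spent 72 h in medium with charcoal-stripped serum, which lacks androgens, before treatment in 12-well plates. In the first experiment cells received 0.1% DMSO (vehicle), 1 µM Senexin B, 0.1 nM R1881 or R1881 with Senexin B for 24 h, with 3 libraries in each group. In the second experiment they received 0.1% DMSO, 500 nM SNX631, 1 nM R1881 or R1881 with SNX631 for 72 h, with 4 libraries in each group. R1881 is a synthetic androgen, and Senexin B and SNX631 are chemically unrelated inhibitors of CDK8 and CDK19, the kinases of the Mediator complex. The Senexin B dose is that of the sample labels, and it was not the same in every source used here. Time, R1881 dose, inhibitor and experiment change together between 24 h and 72 h and cannot be told apart. The study's methods call its RNA-seq replicates biological, without saying how the wells of a group were grown apart, and the labels add nothing on this. The p-values measure the spread between these libraries.

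AP-1 is a dimer of a JUN protein (JUN, JUNB or JUND) with another JUN protein, a FOS protein (FOS, FOSB, FOSL1 or FOSL2) or a member of the ATF family such as ATF3. EGR1 and EGR3 are zinc finger factors. FOS, EGR1 and several of the others are immediate-early genes, which are transcribed within minutes of a growth or stress signal through serum response factor and its ETS partners and then fall silent again, while JUND is made in most cells at a steady rate and ATF3 is raised by many kinds of stress. In prostate epithelium, AP-1 proteins and the androgen receptor are known to affect each other's activity. CDK8 and CDK19 act on RNA polymerase II through Mediator and are known to take part in the induction of serum response genes.

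The proximal promoters show which of the signals known from textbooks can be read in the sequence next to the start site. RefSeq promoter windows (GRCh38.p14, 250 bases before to 50 bases after the start) were searched for 8 of the 10 genes, ATF3 with 2 windows. FOSL1 and EGR3 were not searched and are named here without a sequence. The stretches below are shown because they hold the letters searched for, which are in capitals, from positions counted in bases from the start site.
JUN: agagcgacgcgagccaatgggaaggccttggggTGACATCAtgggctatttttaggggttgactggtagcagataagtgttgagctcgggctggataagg
JUND: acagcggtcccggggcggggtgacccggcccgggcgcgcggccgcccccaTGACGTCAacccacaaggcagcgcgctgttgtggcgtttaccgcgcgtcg
ATF3: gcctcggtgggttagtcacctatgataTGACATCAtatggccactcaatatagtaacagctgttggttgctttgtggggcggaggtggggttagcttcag
FOSL2: tgaactcgtgccattgtagTGACTCAtctc
JUNB: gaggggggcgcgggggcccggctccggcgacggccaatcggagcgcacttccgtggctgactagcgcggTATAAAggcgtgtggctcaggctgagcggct
FOS: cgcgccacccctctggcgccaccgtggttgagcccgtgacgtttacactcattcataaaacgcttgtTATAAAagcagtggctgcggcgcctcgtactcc
FOSB: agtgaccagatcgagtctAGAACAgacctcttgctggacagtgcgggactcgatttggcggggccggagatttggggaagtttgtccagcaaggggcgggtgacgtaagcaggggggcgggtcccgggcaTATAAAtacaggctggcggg
EGR1: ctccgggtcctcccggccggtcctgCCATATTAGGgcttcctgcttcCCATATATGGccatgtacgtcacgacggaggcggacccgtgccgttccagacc

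The JUN stretch is chr1:58784048-58784147 on the minus strand, JUND chr19:18281773-18281872 on the minus strand, ATF3 chr1:212565257-212565356, FOSL2 chr2:28392843-28392872, JUNB chr19:12791386-12791485, FOS chr14:75278728-75278827, FOSB chr19:45467836-45467985 and EGR1 chr5:138465349-138465448, the last 6 on the plus strand. The capitals in JUN, JUND and ATF3 mark TGACNTCA, a form of the site that AP-1 and ATF dimers bind, which lay at -67 in JUN, at -200 in JUND and at -123 in 1 of the ATF3 windows. Its letters occurred in 7.72% of the 35116 promoter windows on either strand. In FOSL2 they mark TGANTCA, the other AP-1 form, at 5 bases after the start, which occurred in 7.71% of the windows. In JUNB, FOS and FOSB they mark TATAAA, at -31, -33 and -30, which occurred in 11.5% of the windows. EGR1 held a pair of CArG boxes, the serum response factor site, at -105 and -83, and a CArG box occurred in 1.29% of the windows. AGAACA, the core hexamer of the androgen response element, lay at -142 in FOSB and in 14.8% of the windows, and GCGTGGGCG, an EGR1 site, lay in none of the 9 member windows and in 0.795% of all. These are matches of letters and not measured binding.

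The labelled cell type was checked first. All 8 luminal prostate markers listed were well expressed, with summed levels of 3612 to 5913 CPM (a gene's count relative to the library's TMM-scaled total) over the groups. TMPRSS2, an androgen-induced protease gene, rose 3.72 ± 0.06 log2 units (SE) with R1881 at 24 h and 4.10 ± 0.06 at 72 h, so the libraries labelled R1881 had the androgen response (edgeR adjusted p = 1.57e-32 and 8.92e-42). Of 8 markers of other cell types, 5 (KRT5, TP63, DCN, PTPRC and PECAM1) had at most 3 counts in every library. The summed level of the 8, which came mainly from COL1A1 and COL3A1, was 27.3 to 30.8 CPM with vehicle and 16.1 to 18.2 with R1881 at 24 h, and 33.0 to 35.7 and 18.5 to 25.6 at 72 h. Its part in the results was not tested. Library totals ran from 9847867 to 33811127 counts. The largest was vehicle replicate 3 at 24 h, and the next was 15249891.

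JUND, JUN, JUNB, FOSL2 and ATF3 were transcribed at a substantial level, and the other 5 genes were at or near the counting floor, in all 8 groups. Per kb of exon, in vehicle cells at 24 h, JUND stood at 83.0 ± 2.29 CPM (SD, n = 3), JUN at 48.5 ± 0.87, JUNB at 26.6 ± 1.14, FOSL2 at 16.3 ± 0.22 and ATF3 at 3.71 ± 0.14. That order of 5 genes was the same in each of the 8 groups, and each neighbour differed from the next by more than the spread. Below them, FOSB (0.213 ± 0.041), EGR1 (0.184 ± 0.082) and FOS (0.0756 ± 0.0153) changed places between groups. FOSB and EGR1 did not differ beyond their spread in these vehicle cells, while EGR1 per kb was above FOSB in every library of the 2 R1881 groups at 24 h. FOSL1 had 0 to 5 counts in a library and EGR3 0 to 2.

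The low members were counted as follows. FOS, which pairs with JUN in the classical AP-1 dimer, had 126 counts in all 28 libraries together and at most 3 counts in 12 of them. EGR1 had 4 to 24 counts and 266 in all. FOSL1, which is abundant in invasive epithelial cancers, had 23 counts in all and none in 13 libraries, and EGR3 had 9 in all and none in 20. A floor of 3 counts equals 0.0888 to 0.305 CPM depending on the library, so levels below that could not be seen at this depth. FOS, FOSL1 and EGR3 did not pass the filter on low counts in either experiment, and 7 of the 10 genes were tested (FOSB, FOSL2, JUN, JUNB, JUND, EGR1 and ATF3).

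**Figure D1:**
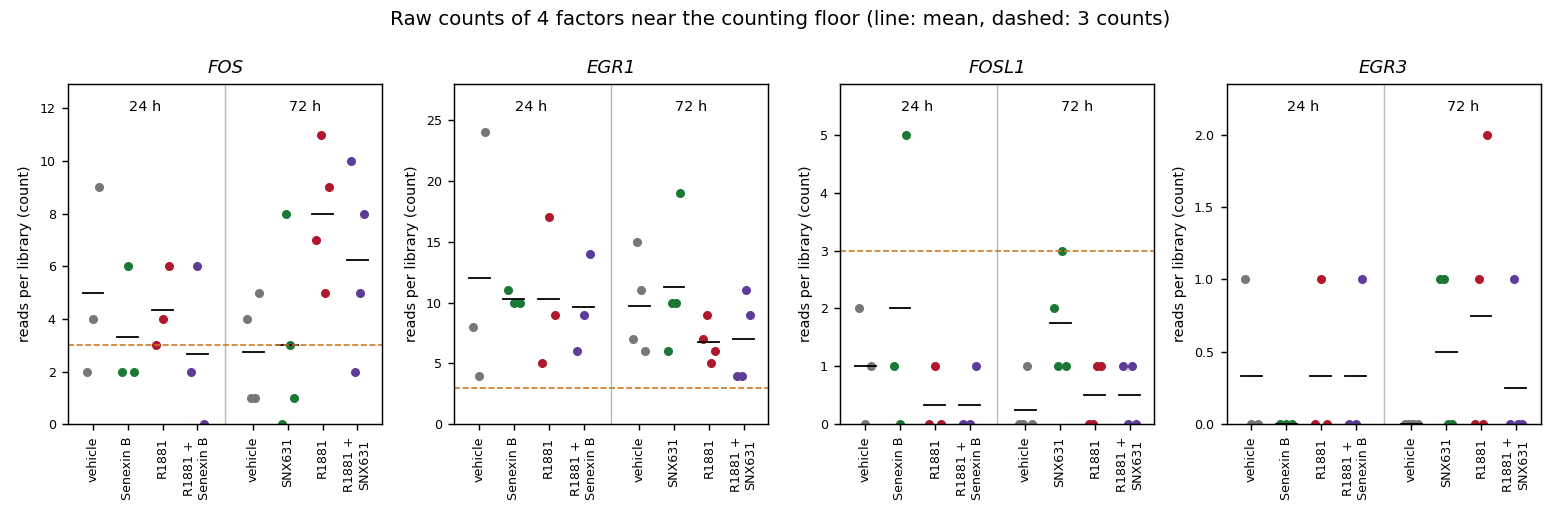
Reads per library (raw counts, vertical axis) of FOS, EGR1, FOSL1 and EGR3 in the 8 groups, 1 point per library, with the group mean as a line and 3 counts as a dashed line. FOSL1 and EGR3 lie at 0 to 5 counts, and FOS in the R1881 libraries at 72 h lies at 5 to 11 counts against 1 to 5 with vehicle.

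FOS did not pass the filter on low counts, but its CPM values were higher with R1881 at 72 h. The 4 vehicle libraries held 4, 1, 1 and 5 counts, and the 4 R1881 libraries 7, 11, 5 and 9. The highest vehicle library and the lowest R1881 library both had 5 counts, but their CPM values (at most 0.386 and at least 0.441) did not overlap. With no filter on low counts, the log2 fold change was 1.66 ± 0.53 (SE, edgeR adjusted p = 0.00293). In that setting 3664 of 33285 genes were called. With SNX631 present the counts were 0, 8, 3 and 1 without R1881 and 10, 2, 5 and 8 with it, and they overlapped. The difference was not called there (0.90 ± 0.54, edgeR adjusted p = 0.184 with no filter), and the difference between the R1881 effects with and without SNX631 was not called either (edgeR adjusted p = 0.808). At 24 h, where R1881 was given at the lower dose, FOS had 2, 4 and 9 counts with vehicle and 3, 4 and 6 with R1881. Because vehicle replicate 3 was the deepest library, the CPM ranges were 0.190 to 0.285 and 0.278 to 0.525, which overlap, and the log2 difference with no filter was 0.59 ± 0.62 (edgeR adjusted p = 0.555).

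A gene was called when its adjusted p (FDR, Benjamini-Hochberg over all genes tested) was under 0.01 and its change was over 1.5-fold in edgeR's quasi-likelihood test. Replicates agreed so closely (biological coefficient of variation 2.72% at 24 h and 2.38% at 72 h) that changes far below 1.5-fold passed the FDR limit. For that reason the number past the FDR limit alone is given beside the number called, a count chosen after seeing the data.

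R1881 at 24 h separated ATF3 from the other AP-1 genes. ATF3 rose, and FOSL2, JUN, JUNB and JUND were lower by amounts under 1.5-fold. Of the 7 genes tested 1 was called, against 19.0% of the 15963 genes tested, and 5 passed the FDR limit alone, against 48.3%. With 7 genes, neither count is read as particular to the family. The median log2 change of the 7 was -0.33, beside -0.02 for all genes tested.

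ATF3 (GRCh38 chr1:212565334-212620777, plus strand), a stress-responsive factor of the ATF family, stood at 15.6, 14.6 and 14.6 CPM in the vehicle libraries at 24 h and at 27.3, 28.3 and 26.0 with R1881. The groups did not overlap, with every R1881 library above every vehicle library. In bulk RNA, a change in the number of cells with a transcript and a change in its amount per cell cannot be told apart. The rise was 0.87 ± 0.07 log2 units (SE), or 1.83-fold (edgeR adjusted p = 1.52e-12). At 72 h the vehicle libraries held 16.04, 13.9, 15.6 and 12.8 CPM and the R1881 libraries 17.7, 22.0, 21.2 and 22.2. R1881 replicate 1 was the low one, and the groups still did not overlap. The difference at 72 h, 0.52 ± 0.08 (edgeR adjusted p = 3.4e-07), was 1.44-fold and so not called.

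FOSL2 (GRCh38 chr2:28392448-28417312, plus strand), also known as FRA2, is the only FOS protein gene that was well expressed here. At 24 h it stood at 118, 116 and 115 CPM with vehicle and at 77.0, 79.2 and 78.9 with R1881. All R1881 libraries were lower than all vehicle libraries. The log2 difference was -0.57 ± 0.04 (edgeR adjusted p = 1.68e-14), a ratio of 0.674 that stopped just short of the fold limit. With library totals in place of TMM it was -0.65 and was called.

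At 72 h the same comparison gave almost nothing for FOSL2. The vehicle libraries held 93.0, 81.6, 76.3 and 78.7 CPM and the R1881 libraries 82.4, 83.4, 79.6 and 77.1, which overlap. The log2 difference was -0.03 with a 95% interval of -0.12 to 0.06 (edgeR adjusted p = 0.58). Tested across experiments, the R1881 effect at 72 h minus that at 24 h was 0.54 ± 0.06 (edgeR adjusted p = 2.51e-09), under the fold limit. Without vehicle replicate 1 at 72 h, the library at 93.0 CPM, it was 0.60 and was called. The vehicle cells themselves held less FOSL2 at 72 h than at 24 h (-0.50 ± 0.04, edgeR adjusted p = 1.32e-14), and the R1881 levels of the 2 experiments lay within 77.0 to 83.4 CPM.

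JUN (GRCh38 chr1:58780788-58784327, minus strand), the gene of c-Jun, was lower with R1881 at both times. At 24 h the libraries held 175, 171 and 169 CPM with vehicle and 129.9, 146 and 132 with R1881. At 72 h they held 182, 165, 177 and 171 with vehicle and 130.2, 138, 131 and 128 with R1881. The groups did not overlap in either experiment. The log2 differences were -0.33 ± 0.04 and -0.40 ± 0.03 (edgeR adjusted p = 1.42e-08 and 4.62e-13), neither past 1.5-fold. The effect at 72 h minus that at 24 h was -0.07, with a 95% interval of -0.17 to 0.04.

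JUNB (chr19:12791496-12793315, plus strand) and JUND (chr19:18279760-18281622, minus strand), whose proteins often oppose or replace c-Jun, were lower with R1881 at 24 h by amounts under 1.5-fold. JUNB stood at 50.7, 46.7 and 47.8 CPM with vehicle and at 34.4, 43.0 and 37.8 with R1881 at 24 h, a log2 difference of -0.33 ± 0.06 (edgeR adjusted p = 4.44e-05). JUND stood at 158, 149.7 and 156 CPM with vehicle and at 130.1, 148 and 131 with R1881, a difference of -0.18 ± 0.05 (edgeR adjusted p = 0.000929). In both genes R1881 replicate 2 was the highest of its group and close to the vehicle libraries. The JUND difference missed the FDR limit without vehicle replicate 3, R1881 replicate 1 or R1881 replicate 3, at adjusted p of 0.0118, 0.0169 and 0.0183 in edgeR. At 72 h neither gene passed, with -0.06 ± 0.05 for JUNB and -0.07 ± 0.04 for JUND. JUNB lies inside an opposite-strand annotation of HOOK2 that shares 259 bases of exon with it, and the strand setting used for counting is not given in the sources used here, so part of its reads may belong to HOOK2.

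At 72 h, none of the 7 genes was called with R1881 in edgeR, against 19.8% of 16084 genes. Of the 7, 2 (JUN and ATF3) passed the FDR limit alone, against 52.2%, and the same number had an unadjusted p under 0.05. DESeq2 called 0. The median log2 change of the 7 was -0.07, beside -0.01 for all genes.

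FOSB (chr19:45467995-45475179, plus strand), a FOS family gene near the floor, had lower counts with R1881 at 24 h. The gene lies inside an opposite-strand annotation of ERCC1, with 0 bases of exon shared. As the strand setting is not given, part of its few reads may belong to ERCC1. FOSB had 12, 20 and 34 counts with vehicle and 2, 8 and 6 with R1881, and 14, 22 and 6 counts with Senexin B against 7, 5 and 3 with both. The last comparison overlapped, because Senexin B replicate 3 held 6 counts. Vehicle replicate 3, with 34 counts, was the deepest library. In CPM the vehicle libraries held 1.14, 1.43 and 0.978 and the R1881 libraries 0.186, 0.713 and 0.525, which do not overlap. The log2 differences were -1.21 ± 0.47 and -1.33 ± 0.51 (edgeR adjusted p = 0.0178 and 0.0175) and were not called. With no filter on low counts both differences were called (edgeR adjusted p = 0.00592 and 0.00639). DESeq2 called neither of them (DESeq2 adjusted p = 0.0395 and 0.0350). At 24 h every library with R1881, with or without Senexin B, held fewer FOSB counts than the filter's minimum of 10. FOSB was therefore tested there only through groups with more counts, those without R1881. Its lower level with R1881 is given as a description. EGR1 was not called in any comparison. Its interval for R1881 at 24 h, -0.16 to 1.39 log2 units, shows how little its 4 to 24 counts allow. Under SNX631 at 72 h the EGR1 difference with R1881 had the other sign, -0.84 (interval -1.60 to -0.08, edgeR adjusted p = 0.0476).

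**Figure D2:**
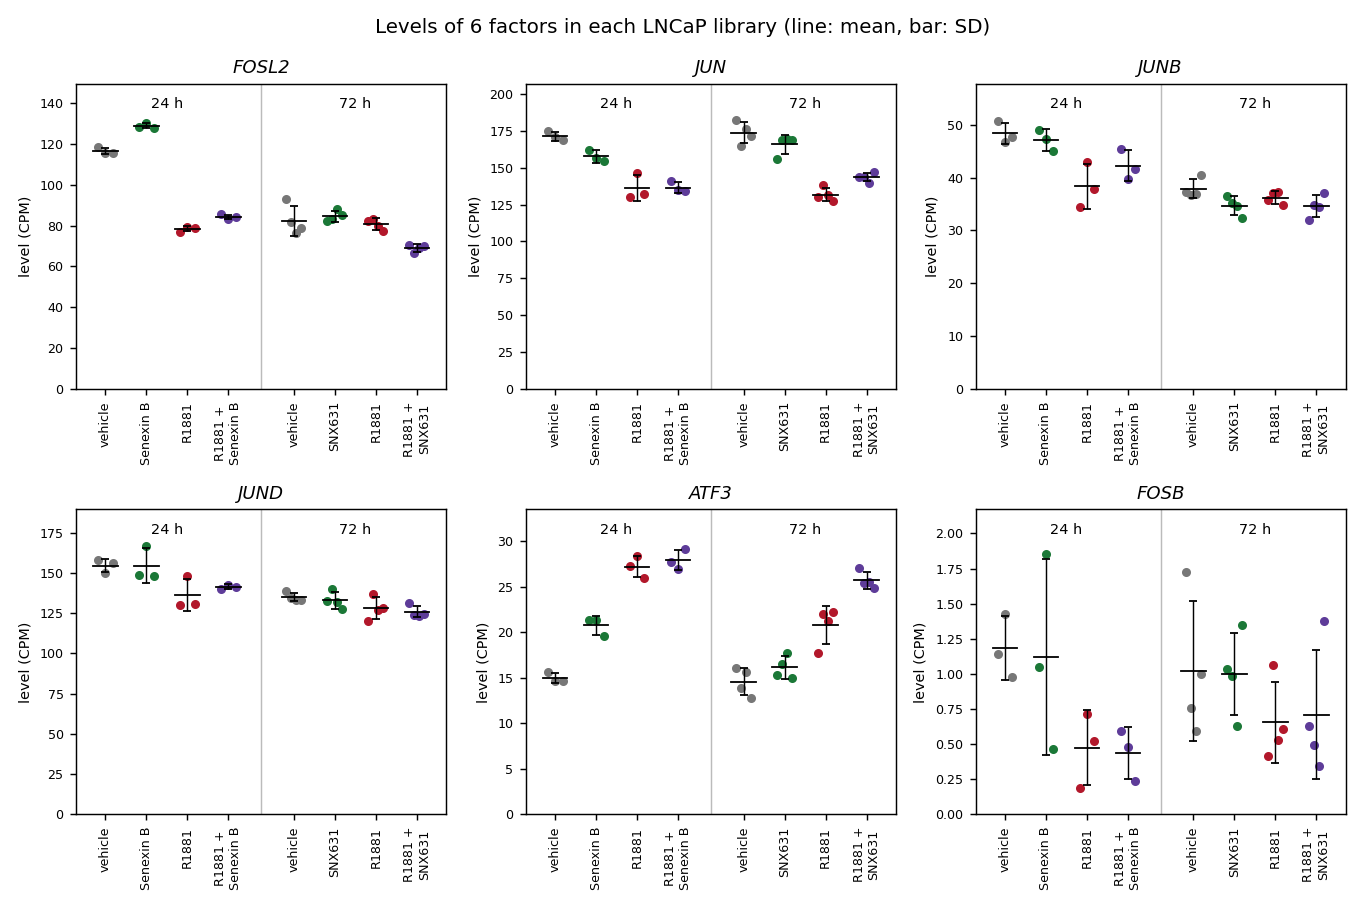
Levels (CPM, vertical axis from 0) of FOSL2, JUN, JUNB, JUND, ATF3 and FOSB in the 28 libraries, with the 24 h groups on the left and the 72 h groups on the right, 1 point per library, the group mean as a line and the SD as a bar. FOSL2 is highest in the 24 h groups without R1881 (115 to 130.4 CPM), and ATF3 is higher in each R1881 group than in the matching group without it.

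In inhibitor-treated cells, FOSL2, JUN and ATF3 differed with R1881 past the FDR limit at both times. Under Senexin B at 24 h, 1 of 7 genes was called (FOSL2, which fell), against 18.9% of all genes, and 3 passed the FDR limit alone (FOSL2, JUN and ATF3), against 47.5%. FOSL2 held 128, 130.4 and 128 CPM with Senexin B and 85.4, 83.1 and 84.1 with both, a fall of 0.60 ± 0.04 log2 units (edgeR adjusted p = 4.18e-15). Without Senexin B replicate 3, 2 genes were called, the other one FOSB. Under SNX631 at 72 h, 1 of 7 was called (ATF3, which rose), against 22.0%, and 3 passed the FDR limit alone (ATF3, FOSL2 and JUN), against 57.2%. ATF3 held 15.3, 16.5, 17.8 and 14.97 CPM with SNX631 and 27.1, 25.4, 25.5 and 24.9 with both, a rise of 0.67 ± 0.07 (edgeR adjusted p = 1.52e-10). With library totals in place of TMM that rise was 0.56 and under the fold limit.

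Neither inhibitor alone changed a gene of the family past both limits. Senexin B called 0 of 7 genes in edgeR, against 3.76% of all genes, with 2 past the FDR limit alone (ATF3 and FOSL2), against 25.1%, 3 at an unadjusted p under 0.05 and 0 called by DESeq2. ATF3 stood at 21.4, 21.3 and 19.6 CPM with Senexin B, above all vehicle libraries, a difference of 0.48 ± 0.07 (1.39-fold, edgeR adjusted p = 3.64e-06). FOSL2 was higher by 0.14 ± 0.03 (edgeR adjusted p = 0.0016, and 0.0123 without vehicle replicate 3), and missed the FDR limit in 2 of 6 other settings, library totals and no filter on low counts. JUN differed by -0.12 ± 0.04 (edgeR adjusted p = 0.0111). For JUNB and JUND the 95% intervals were -0.15 to 0.08 and -0.10 to 0.08 log2 units.

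SNX631 alone at 72 h called 0 of 7 in edgeR, against 4.76%, and 0 passed the FDR limit alone, against 26.9%. One gene, JUNB, had an unadjusted p under 0.05, and DESeq2 called 0. JUNB stood at 37.3, 36.7, 37.0 and 40.6 CPM with vehicle and at 36.6, 35.2, 34.6 and 32.3 with SNX631, with no overlap (-0.13 ± 0.05, edgeR adjusted p = 0.0553). ATF3 differed by 0.16, with a 95% interval of -0.00 to 0.32, and FOSL2 by 0.04, with an interval of -0.04 to 0.13. The summed level of 10 heat shock genes was 7501 to 7588 CPM with vehicle and 8266 to 8544 with SNX631 at 72 h, and 6964 to 7130 and 7466 to 7760 with vehicle and Senexin B at 24 h. Its part in the ATF3 values was not tested.

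In cells given R1881, no gene of the family was called with either inhibitor. Senexin B with R1881 called 0 of 7 in edgeR, against 3.12%, with 0 past the FDR limit alone, against 22.6%, 2 at an unadjusted p under 0.05 and 0 by DESeq2. ATF3 was at 27.7, 27.0 and 29.1 CPM with both agents, beside the 26.0 to 28.3 of R1881 alone, a difference of 0.05 with an interval of -0.08 to 0.18. SNX631 with R1881 called 0 of 7 in edgeR, against 4.11%, with 3 past the FDR limit alone (FOSL2, JUN and ATF3), against 33.2%, the same 3 at an unadjusted p under 0.05 and 0 by DESeq2. FOSL2 was at 70.3, 66.4, 69.0 and 70.0 CPM with both agents, below every R1881 library (-0.23 ± 0.04, edgeR adjusted p = 7.28e-05). ATF3 was above every R1881 library (0.30 ± 0.07, edgeR adjusted p = 0.000451). JUN, at 144, 144, 139.9 and 147 CPM, was also above every R1881 library (0.12 ± 0.03, edgeR adjusted p = 0.00292, and 0.0169 without R1881 replicate 4), and missed the FDR limit in 1 of 6 other settings, library totals.

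**Figure D3:**
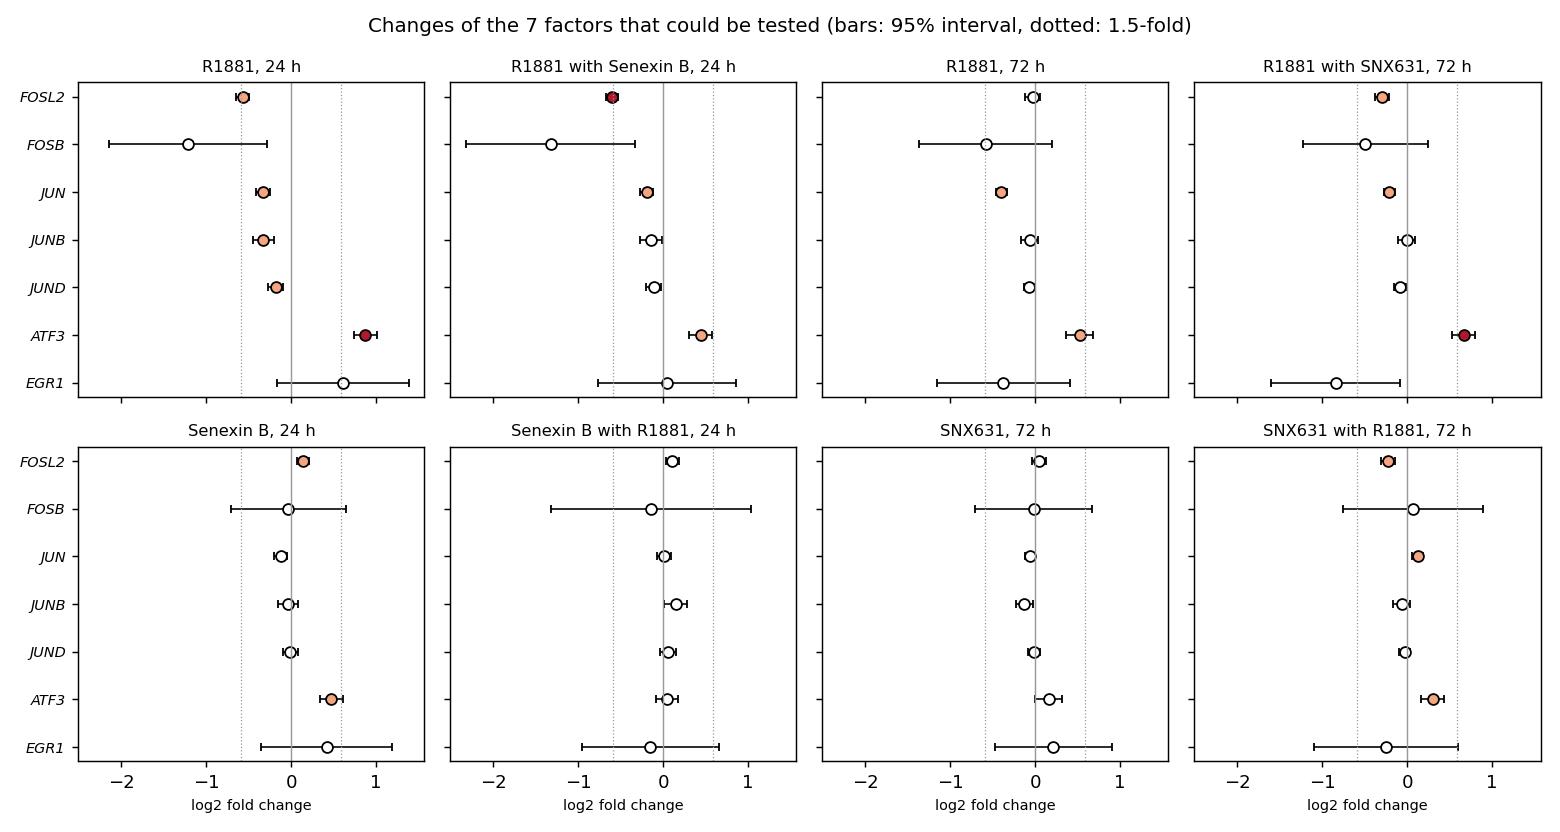
Log2 fold changes (horizontal axis) of the 7 genes tested in the 8 comparisons within experiments, with 95% intervals as bars and 1.5-fold as dotted lines. Dark red points passed both limits, light red points the FDR limit alone and white points neither. ATF3 is dark at 24 h with R1881 and at 72 h with R1881 in SNX631-treated cells, and FOSL2 at 24 h with R1881 in Senexin B-treated cells.

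Whether an inhibitor changed the response to R1881 was tested as an interaction. No gene of the 7 was called in edgeR, with Senexin B against 0.583% of all genes and with SNX631 against 1.19%, and DESeq2 called 0 in both. Past the FDR limit alone there was 1 gene with Senexin B, against 2.09%, and 2 at an unadjusted p under 0.05. With SNX631 there were 2, against 7.09%, the same 2 at an unadjusted p under 0.05. The ATF3 response to R1881 was smaller with Senexin B by 0.43 ± 0.10 log2 units, 0.44 with it and 0.87 without (edgeR adjusted p = 0.00706). The FOSL2 response differed by -0.27 ± 0.06 with SNX631, from -0.03 without to -0.30 with it (edgeR adjusted p = 0.00226). The JUN response differed by 0.19 ± 0.05, from -0.40 to -0.21 (edgeR adjusted p = 0.00522). All 3 were below 1.5-fold. The ATF3 value missed the FDR limit in 8 of the 12 fits that each left out 1 library, with adjusted p of 0.012 to 0.0348 in edgeR, namely without vehicle replicate 2 or 3 or without replicate 1 or 2 of any of the other 3 groups. It also missed it in 2 of 6 other settings, no filter on low counts and DESeq2. The JUN value missed it in 6 of 16, with adjusted p of 0.0104 to 0.0176 in edgeR, namely without vehicle replicate 1 or 3, SNX631 replicate 1, R1881 replicate 3 or 4, or replicate 1 of R1881 with SNX631. The FOSL2 value kept it in all 16.

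Between the experiments, none of the 7 genes was called in any of the 4 comparisons in edgeR or DESeq2. For the R1881 effect, 1.89% of 16685 genes were called and 7.57% passed the FDR limit alone, with 1 of the 7 genes (FOSL2) past it and 3 at an unadjusted p under 0.05. For the inhibitor effect without R1881 these were 0.461% and 2.31% of all genes, with 0 of the 7 past the FDR limit and 1 at an unadjusted p under 0.05. For the inhibitor effect with R1881 they were 0.204% and 2.65%, with 1 of the 7 (FOSL2, -0.33 ± 0.06, edgeR adjusted p = 0.000554) past it and 4 at an unadjusted p under 0.05. For the vehicle groups they were 5.99% and 32.6%, with 3 of the 7 past it (FOSL2, JUNB and JUND, all lower at 72 h) and the same 3 at an unadjusted p under 0.05.

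The 32 other immediate-early genes listed, of which 26 could be tested, responded to R1881 in both directions. At 24 h 4 rose and 4 fell, against 9.81% and 9.16% of all genes, and at 72 h 5 rose and 6 fell, against 9.68% and 10.1%. Under Senexin B 6 rose and 4 fell (9.94% and 8.94% of all genes), and under SNX631 5 rose and 7 fell (10.0% and 11.9%). The medians of the 26 with R1881 were -0.17 at 24 h and 0.05 at 72 h. KLF4, a Krüppel-like factor of epithelial differentiation, rose by 1.84 ± 0.17 log2 units at 24 h and 2.98 ± 0.21 at 72 h. NR4A1, an orphan nuclear receptor gene that is itself an immediate-early gene, rose by 1.31 ± 0.10 and 1.67 ± 0.09. GADD45B and PLK2 also rose at both times, and TRIB1, IER5L and NFKBIZ fell at both times.

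NR4A2, the close relative of NR4A1, fell with R1881 and rose with each inhibitor alone. It was at 2.18 to 2.39 CPM with vehicle, 9.86 to 11.2 with Senexin B, 0.186 to 0.7005 with R1881 and 0.673 to 1.62 with both at 24 h. At 72 h it was at 2.00 to 2.89 with vehicle, 7.35 to 10.8 with SNX631, 0.246 to 0.607 with R1881 and 0.551 to 0.870 with both. Each inhibitor raised it in cells without R1881, by 2.15 ± 0.16 and 1.89 ± 0.15 log2 units, and R1881 lowered it by 2.36 ± 0.41 and 2.42 ± 0.34 (edgeR adjusted p at most 2.77e-07 in these 4). With R1881 alone its levels come to under 10 counts per library, the filter's minimum, so NR4A2 was tested through groups with more counts. Its fall with R1881 is therefore given as a description. In R1881-treated cells the inhibitor differences of 1.19 and 0.50 were not called.

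Senexin B alone called 2 of the 26 genes, NR4A2 and KLF4, against 3.76% of all genes, and SNX631 alone 3, NR4A2, NFKBIZ and IER5, against 4.76%. Senexin B with R1881 called 1, NR4A1, against 3.12% of all genes, and it rose by 0.82 ± 0.08 (edgeR adjusted p = 1.52e-09). SNX631 with R1881 called 0 in edgeR, against 4.11%, and 0 in DESeq2, with 16 at an unadjusted p under 0.05. Of all 16084 genes, 6882 passed FDR under 0.05 in that comparison. With 26 genes, none of these counts is read as particular to the list. The NR4A1 response to R1881 was larger with either inhibitor, by 0.79 ± 0.14 with Senexin B and 0.59 ± 0.13 with SNX631 (edgeR adjusted p = 0.000374 and 0.00126), both called. The KLF4 call with Senexin B was at an adjusted p of 0.00988 in edgeR. The list's count with Senexin B was 1 by DESeq2, and 1 without any of the 3 vehicle replicates, R1881 replicate 1, or replicate 2 or 3 of both agents. With Senexin B and R1881 it was 3 without R1881 replicate 2 and 2 without replicate 1 of both agents.

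Of 33 dimer partners and upstream factors, 30 were tested. R1881 raised 2 and lowered 2 at 24 h, raised 5 and lowered 1 at 72 h, raised 1 and lowered 1 under Senexin B, and raised 2 and lowered 1 under SNX631, against 19.0%, 19.8%, 18.9% and 22.0% of all genes called in either direction. None of these counts is read as particular to the list. CREB5, a partner that binds with JUN, fell by 1.52 ± 0.31 log2 units at 24 h and 2.36 ± 0.25 at 72 h, and ELK4, an ETS partner of serum response factor, rose by 1.42 ± 0.04 and 1.37 ± 0.04. RPS6KA3, the gene of the ERK-activated kinase RSK2, rose by 0.78 ± 0.07 and 1.15 ± 0.05. SRF itself, the serum response factor gene, differed by 0.35 and 0.26, under the fold limit. Senexin B alone called 1 gene of the list, CREB5, against 3.76% of all genes. It fell by 0.82 ± 0.25, a call that DESeq2 did not make and that was lost without vehicle replicate 2 or 3 or any Senexin B replicate. SNX631 alone called 1, against 4.76%, which was JDP2, a repressor that pairs with JUN, and it fell by 0.64 ± 0.09. SNX631 with R1881 called 1, against 4.11%, which was MAPK10, the gene of the kinase JNK3, and it fell by 1.18 ± 0.22. Senexin B with R1881 called 0 in edgeR, against 3.12%, and 0 in DESeq2, with 14 at an unadjusted p under 0.05, and 1 without R1881 replicate 1. Of all 15963 genes, 5260 passed FDR under 0.05 in that comparison. The inhibitor counts are not read as particular to the list either.

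Of the 24 known targets of AP-1 and EGR1, 6 passed the filter on low counts (CCND1, HBEGF, PDGFA, PDGFB, THBS1 and VEGFA). THBS1, which encodes the matrix protein thrombospondin-1, rose with R1881 by 3.31 ± 0.45 log2 units at 24 h, from 3 to 7 counts to 24 to 41, and by 1.88 ± 0.38 at 72 h, from 3 to 6 counts to 13 to 17. Its vehicle counts lay under the filter's minimum count of 10, so it was tested only through groups with more counts. Its rise is therefore given as a description. VEGFA, the angiogenic growth factor gene, rose by 0.63 ± 0.05 at 24 h and stood 0.57 ± 0.04 higher at 72 h, under the fold limit. With R1881, HBEGF, an EGF receptor ligand gene, fell by 0.59 ± 0.18 under Senexin B, and PDGFA, a platelet-derived growth factor gene, fell by 0.69 ± 0.13 under SNX631. In all, R1881 called 2, 1, 3 and 3 of the 6 at 24 h, at 72 h, under Senexin B and under SNX631, against 19.0%, 19.8%, 18.9% and 22.0% of all genes. With 6 genes, and THBS1 tested through its higher groups, none of these counts is read as particular to the list. The count under Senexin B was 2 by DESeq2. The inhibitors called 0 of the 6 in each of their 4 comparisons in edgeR and DESeq2, with 3 (Senexin B), 2 (Senexin B with R1881), 3 (SNX631) and 3 (SNX631 with R1881) at an unadjusted p under 0.05. In the same order, edgeR called 3.76%, 3.12%, 4.76% and 4.11% of all genes. FDR under 0.05 alone was passed by 5718 and 5260 of 15963 genes and by 5870 and 6882 of 16084. With 6 genes, these counts are not read as a result about the targets. The count of targets called was 1 for Senexin B with R1881 without R1881 replicate 1, and 2 for R1881 at 72 h without vehicle replicate 2 or R1881 replicate 1. Among those not tested, the collagenase and stromelysin genes MMP1 and MMP3, the classical AP-1 targets, had 0 counts in every library, PLAU had at most 1 and TGFB1 at most 23.

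**Figure D4:**
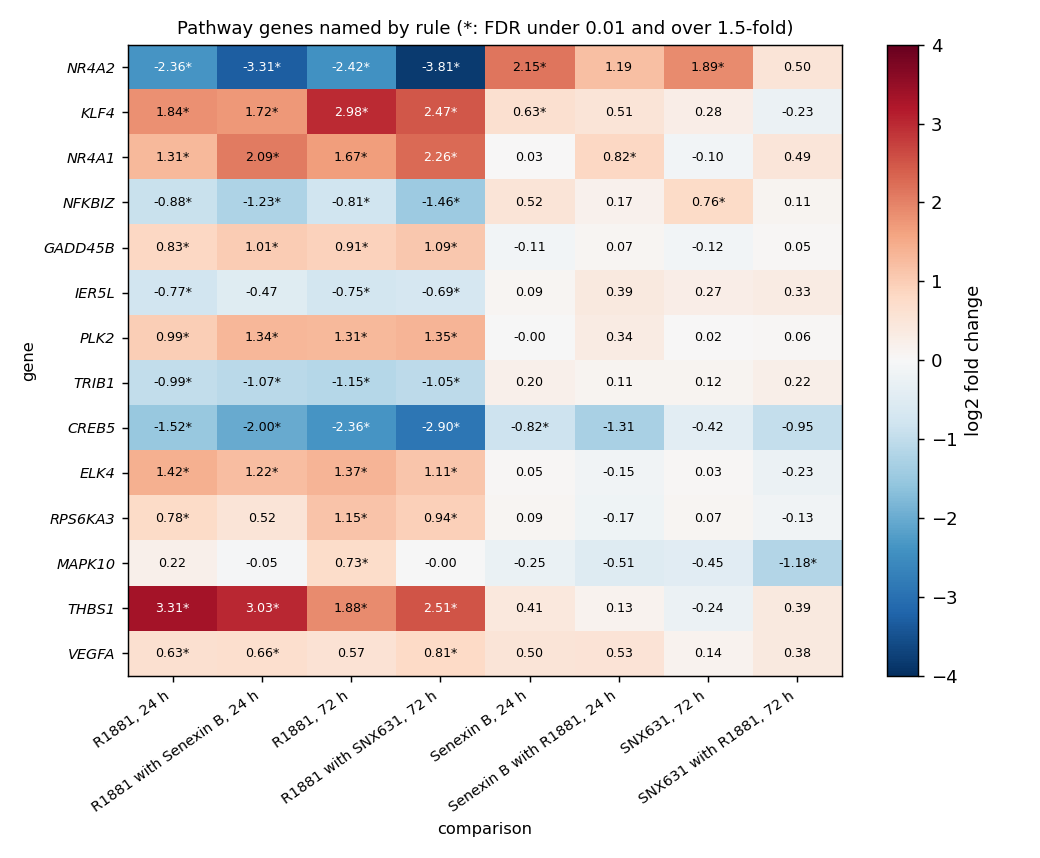
Log2 fold changes (colour scale and printed values) of 14 genes of the 3 lists, chosen by the naming rule, in the 8 comparisons within experiments, with a star where both limits were passed. NR4A2 is the gene with a star in both columns of an inhibitor alone, and its values are negative where cells with R1881 are compared with cells without it.

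The genes whose group means followed FOSL2 most closely were found over the 8 group means of log2 CPM, each centred on its experiment, among 13473 genes. They were MAN2B1, COPA and ACTL10 (Pearson r 0.988, 0.987 and 0.980). With 8 points that share libraries and so many genes compared, high values arise readily, and they are given as a description only.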

How the data were processed

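Per the labels, RNA libraries were made with a directional NEBNext Ultra II kit. The deposited values are expected counts per gene, of which 16.9% of the values above 0 were not whole, which the authors made with cutadapt 2.8, STAR 2.7.2b and featureCounts (Subread 2.0.3), and the submitters' notes list GRCh38.p13 among the builds. The annotation release and strand setting are not given in the sources used here. The counts were rounded, and 2 entries without an Ensembl identifier, which had 0 counts, were left out. Genes were filtered with filterByExpr (minimum count 10, minimum total 15), scaled by TMM and tested with edgeR 4.0.16 quasi-likelihood tests in R 4.3.3, with 12 or 16 libraries of 1 experiment per fit and all 28 for comparisons between experiments. SE values are Wald errors from those fits. Calls used the study's limits, FDR under 0.01 and over 1.5-fold. Exon lengths come from GENCODE 29.

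The members and lists were chosen with earlier results of these data known. The naming rule took all 10 members and, from each list, up to 4 genes with the largest mean change among those called in at least 2 comparisons with at least 1 CPM in the higher group, plus genes called the same way in both R1881 comparisons or in all 4 inhibitor comparisons. Other list genes named (SRF, IER5, JDP2, HBEGF, PDGFA, MMP1, MMP3, PLAU and TGFB1) were chosen after their values were seen. CCND1 and PDGFB are named only among the targets that passed the filter on low counts. The genes most like ATF3 are not reported here. Replicate pairs of a group differed by more than counting noise (chi-square per degree of freedom 1.19 to 2.34), so each library counted once. Replicate numbers did not pair the libraries: correlations of deviations between same-numbered libraries were -0.0138 to 0.0697 at 24 h and -0.0694 to 0.0715 at 72 h. Scripts were tested on simulated counts. Alternatives were DESeq2 1.42.0, other scalings, filters and limits, a replicate block, 1 fit of all libraries and leaving out each library. Totals of 9847867 to 33811127 counts set the floor, and it covers counting error only.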

Additional observations from a re-analysis of the deposited data

Results flagged for a closer look

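In 3 of the 28 gene and group pairs tested at 72 h, 1 library stood apart from the other 3 by a gap past Dixon's 95% critical value, which chance gives in about 1 pair of 20. They were JUN with SNX631 (lowest library 156 CPM), JUNB with vehicle (highest 40.6 CPM) and JUND with R1881 and SNX631 (highest 131 CPM). The response to R1881 differed with an inhibitor for ATF3 with Senexin B (-0.43 log2 units), JUN with SNX631 (0.19) and FOSL2 with SNX631 (-0.27), each past the FDR limit and under 1.5-fold. Between the experiments, the FOSL2 response to R1881 differed by 0.54 and its response to the inhibitor in R1881-treated cells by -0.33, where time, dose, inhibitor and experiment cannot be told apart.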

How the results depend on the processing

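For the FOSL2, JUN, JUNB, JUND and ATF3 differences past the FDR limit, 580 alternative values kept their direction and whether they passed both limits together, 2 newly passed both, 1 no longer did and none reversed. Losses of the FDR limit alone are given beside those results, and FOS, FOSB and the listed genes are not in these numbers. For counts of genes called, 786 values stayed within 1.5 times and 102 did not. DESeq2 size factors moved no count, and neither did 1 fit of all 28 libraries. The DESeq2 test called 1 other immediate-early gene and 0 partners with Senexin B, in place of 2 and 1. With library totals in place of TMM, 2 members were called for R1881 at 24 h, 0 for R1881 under SNX631, 1 other immediate-early gene for Senexin B and 2 targets for R1881 at 72 h. That scaling shifted the median of all genes by -0.10 for R1881 at 72 h and by -0.11 under SNX631, and the share of higher calls went from 48.9% to 37.9% and from 45.7% to 34.9%. For the inhibitor effect without R1881 between experiments it went from 67.5% to 78.8%. With no filter on low counts, 2 members were called for R1881 at 24 h, 2 under Senexin B and 1 at 72 h (FOS), with 1 other immediate-early gene for Senexin B and 2 targets for R1881 at 72 h. With a replicate block, 2 members were called for R1881 at 24 h and 2 under Senexin B, the added one being FOSB (adjusted p 0.00407 and 0.00968 in edgeR), and 1 other immediate-early gene for Senexin B; the numbers did not pair the libraries. The cause of these changes was not tested.

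With FDR under 0.01 and no fold limit, chosen after seeing the data, and then with FDR under 0.05 and no fold limit, the members past the limit numbered 5 and 6 for R1881 at 24 h, 3 and 5 under Senexin B, 2 and 3 for Senexin B, 0 and 1 for Senexin B with R1881, 1 and 1 for the interaction at 24 h, 2 and 2 for R1881 at 72 h, 3 and 5 under SNX631, 3 and 3 for SNX631 with R1881 and 2 and 2 for the interaction at 72 h. Between experiments they numbered 1 and 3 for R1881, 1 and 1 for the inhibitor with R1881 and 3 and 3 for vehicle. Among all 16685 genes, 2222, 1015 and 7153 passed FDR under 0.05 in these comparisons, in the same order. The shares of all genes at FDR under 0.01 are given with each comparison above. For other immediate-early genes the numbers, in the same order of comparisons without the interactions, were 17 and 18, 17 and 18, 9 and 13, 9 and 16, 19 and 21, 20 and 23, and 10 and 14, with 12 and 14 for SNX631 alone. For partners they were 18 and 21, 16 and 19, 3 and 8, 5 and 8, 17 and 20, 17 and 21, and 7 and 9, with 8 and 12 for SNX631 alone. For targets they were 5 and 6 for R1881 at 24 h, 1 and 2 for Senexin B, 1 and 2 for Senexin B with R1881, 4 and 5 for R1881 at 72 h, 5 and 6 under SNX631, 1 and 3 for SNX631 and 2 and 3 for SNX631 with R1881. Among all 15963 genes at 24 h, 9317 passed FDR under 0.05 for R1881 and 9147 under Senexin B. There, 5718 passed for Senexin B, 5260 for Senexin B with R1881 and 722 for the interaction. Among all 16084 genes at 72 h, 9995 passed it for R1881 and 10574 under SNX631. There, 5870 passed for SNX631, 6882 for SNX631 with R1881 and 2036 for the interaction. None of the counts in this paragraph is read as particular to a list.

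Leaving out 1 library at a time gave 1 to 2 members for R1881 under Senexin B and 0 to 1 for the R1881 effect between experiments. It gave 1 to 3 other immediate-early genes and 0 to 1 partners for Senexin B, 1 to 3 other immediate-early genes, 0 to 1 partners and 0 to 1 targets for Senexin B with R1881, and 1 to 2 targets for R1881 at 72 h. Depth limits FOS, FOSL1, EGR3, EGR1 and FOSB, whose counts allow wide intervals or no test.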
